A study of Mus musculus with 16 samples.

Results

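Goblet cells of the 8th section of the small intestine (Si8) were compared with the other epithelial cells of the same section. The members were all the Si8 libraries of the study, chosen by their labels: 4 libraries of mCherry-positive cells, labelled as goblet cells, and 4 of mCherry-negative cells, labelled as enterocytes, so that 8 of the 16 bulk RNA libraries of the series enter the comparison and the remaining 8 come from the distal colon. The donors of both sorts were RedMUC298trTg mice aged 6 to 8 weeks, which carry a red fluorescent MUC2 reporter, and a C57Bl6 mouse served only as the negative control that set the sorting gate. All 8 libraries thus share the transgene, and the groups differ in the sort. Per the labels, epithelium was released with EDTA, digested with collagenase type I and DNase I and stained with a viability dye, and RNA of the goblet sort went over RNeasy MinElute columns while RNA of the other sort went over RNeasy Mini columns, so column type and sort cannot be told apart. The labels do not give the promoter of the reporter, whether animals were pooled, or which libraries came from separate animals. The p-values therefore measure the spread between these libraries, which may be technical. The libraries are called by the numbers in their titles: other S1, S3, S5 and S7, and goblet S2, S4, S6 and S8. The numbers differ in every library, and the labels do not say whether any goblet library and other library belong together.

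Goblet cells are secretory cells that store gel-forming mucin in large granules and release it, with associated proteins, as the mucus over the epithelium. Paneth cells belong to the same secretory lineage, sit at the base of small intestinal crypts and release lysozyme, alpha-defensins and other antimicrobial proteins. Intraepithelial lymphocytes are mostly T cells lodged between the absorptive cells, and mucosal mast cells are granulated immune cells whose granules hold chymase-type proteases, so both can be carried along when epithelium is stripped. Absorptive enterocytes make up most of the remaining epithelium and carry the brush border with its hydrolases and transporters.

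Total counts were 30.8 to 41.1 M in the other libraries and 37.4 to 40.5 M in the goblet libraries. Levels are CPM, the counts of a gene as a share of its library's total, after scaling the totals by TMM factors, which are computed so that the bulk of genes is level between libraries. Changes are log2 fold changes, goblet minus other, ± SE, with p from the quasi-likelihood test of edgeR, Benjamini-Hochberg adjusted over 15487 tested genes, and a gene is called at an adjusted p under 0.05. Log2 CPM correlated at r = 0.986 to 0.993 across genes between libraries of one sort and at 0.894 to 0.921 between sorts. The mitochondrially encoded genes took 6.07% to 8.36% of the counts in the other libraries and 3.19% to 4.07% in the goblet libraries. Mitochondrial ribosomal RNA made up most of this: mt-Rnr2 averaged 5.87% of scaled totals in the other sort and 2.71% in the goblet sort. Of 11 tested mitochondrially encoded genes, 4 were called lower, 0 higher and 7 in neither direction, with a median of −0.24. Among all tested genes, 31.1% were called lower. The 10 most abundant genes of a library took 13.4% to 16.4% and 17.5% to 28.5%, and Fcgbp alone held 6.79% to 12.8% of all counts in the goblet libraries.

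Most of the measured transcriptome differed between the sorts. Of the tested genes 62.3% were called, 31.2% of them higher in the goblet sort (4830 genes) and 31.1% lower (4824 genes), counted as shares of all tested genes. With a log2 change of at least 1 as well, 1349 were higher (8.71%) and 2331 lower (15.1%). All 4 goblet libraries lay above all 4 other libraries for 4202 genes (27.1%), and below them for 4414 (28.5%). The median log2 fold change over all tested genes was 0.02. TMM scaling levels the bulk of genes, so this median and the even split of calls are in part set by the scaling. Every count of list members below stands against these shares. In bulk samples, fewer cells of a type and less RNA per cell cannot be told apart.

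Mucus genes led the genes that were higher in the goblet sort. Muc2, the gel-forming mucin that the reporter is named for, stood at 46.8, 22.6, 79.96 and 43.9 CPM in other S1, S3, S5 and S7 and at 21560.3, 26089.98, 56388 and 37762 CPM in goblet S2, S4, S6 and S8. The groups did not overlap, goblet S6 was the highest and goblet S2 the lowest of the goblet libraries, and since the reporter is tied to MUC2, this difference checks the labels and is no finding. Its log2 fold change was 9.52 ± 0.55 (adjusted p = 9.29e-08), the largest among called genes that did not overlap and reached 10 CPM in one sort. Fcgbp, which encodes a cysteine-rich protein of the mucus gel, stood at 276, 153, 358 and 237 CPM in the other libraries and at 60665, 68164, 145065 and 100372 CPM in the goblet libraries. It had the same order of libraries as Muc2, and its change was 8.51 ± 0.45 (adjusted p = 3.38e-08). Clca1, a secreted metalloprotease of mucus, had 13118, 11805, 25325 and 19509.9 CPM in the goblet libraries against 51.5 ± 20.8 (SD, n = 4) in the other sort. The lectin-like Zg16, which binds bacteria, had 7209, 7588, 15402 and 12549 CPM against 36.5 ± 15.3. The trefoil peptide Tff3 had 5283, 5595, 10365 and 6666 CPM against 47.5 ± 14.6. For each of these genes goblet S6 was the highest library.

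**Figure D1:**
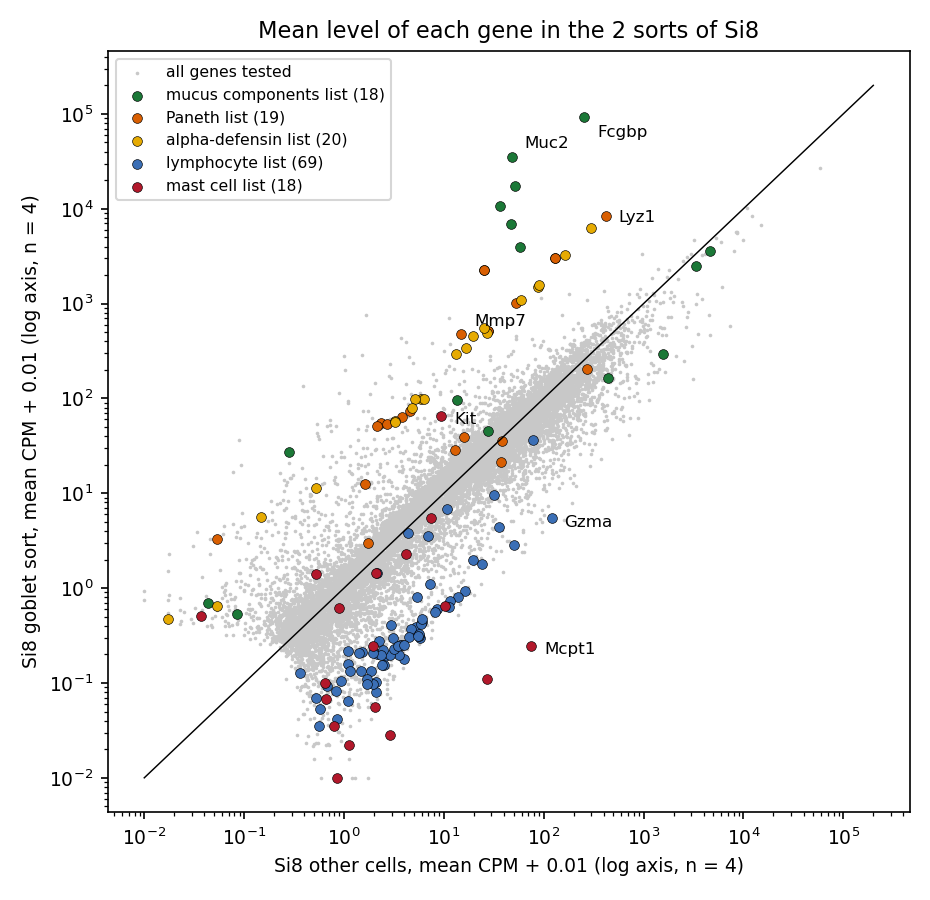
Mean CPM of each tested gene in the 4 other libraries (horizontal, log axis) and in the 4 goblet libraries (vertical, log axis), 0.01 added to each mean so that 0 can be drawn; the line marks equal levels. Mucus, Paneth and alpha-defensin list genes lie mostly above the line, lymphocyte and mast cell list genes mostly below it, with Kit from the mast cell list above it.

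Of 18 mucus list genes tested, 14 were called higher and 3 lower, with a median of 4.38. The 3 lower ones encode the membrane-bound mucins Muc3 (−2.43) and Muc13 (−0.44) and the crosslinking enzyme Tgm2 (−1.40). Muc13 did not pass without other S5 (adjusted p = 0.0546), other S7 (0.0571), goblet S2 (0.0862) or goblet S4 (0.0758). Among the 10 largest changes, besides the mucus genes above, were 6 genes of other kinds. Fer1l6, a member of the ferlin family of vesicle-fusion proteins, went from 2.08, 0.999, 2.16 and 1.29 to 535, 479.5, 1081 and 943 CPM, a change of 8.88 ± 0.41 (adjusted p = 4.71e-08). Frmd3, a protein with a FERM domain, went from 0.0789 ± 0.04897 to 36.2 ± 18.7 CPM (8.84 ± 0.58). Capn9, a calpain of the digestive tract, went from 0.378 ± 0.141 to 134 ± 49.5 CPM (8.50 ± 0.37). Ido1, which starts tryptophan breakdown along the kynurenine route, had 0.914, 0.454, 1.59 and 1.01 CPM in the other libraries and 233, 134, 453 and 298 CPM in the goblet libraries, with S4 lowest and S6 highest. Tgm5, a transglutaminase, reached 11.2, 11.04, 27.998 and 16.6 CPM against 0.0631, 0.0908, 0.0576 and 0.0575 in the other libraries, and Sval1 19.8, 14.7, 25.9 and 19.6 CPM against 0.0946, 0.0908, 0.0576 and 0.0862. For all of these genes the groups lay apart.

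The regulators of the secretory lineage and the machinery for making and packing mucin were higher as groups. Of 18 secretory transcription factors, 13 were called higher and 1 lower, with a median of 1.00. Spdef, needed for goblet cell maturation, had 163, 155, 215 and 156 CPM in the goblet libraries against 4.19, 1.41, 3.66 and 2.099 in the other libraries. Atoh1, which commits progenitors to the secretory lineage, had 156, 136, 203 and 155 CPM against 4.04, 1.79, 3.72 and 2.36. Both lay apart between the sorts in every library. Creb3l4 (5.41) and Creb3l1 (4.31), membrane-anchored factors of the endoplasmic reticulum (ER), and the forkhead factor Foxa3 (4.32) followed, and the lower one was Insm1 (−0.88), a factor of endocrine cells. In the ER folding list 29 of 37 genes were higher and none lower, with a median of 0.73. Ern2, the ER stress sensor of mucous epithelia, changed by 6.32 ± 0.30 and Agr2, an isomerase needed to fold mucin, by 6.11 ± 0.37. Txndc5 (3.61), Dnajc10 (2.69) and Pdia5 (2.61) act on disulphide bonds as well. In the ER to Golgi list 26 of 39 were higher and 8 lower, led by the retrieval receptor Kdelr3 (4.46) and the cargo receptors Tmed6 (3.29) and Tmed3 (1.92). Mia3, which exports bulky cargo from the ER, was higher (1.33), while Mia2, its relative with a part in lipoprotein export, was lower (−1.97).

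Granule exocytosis and mucin glycosylation genes changed in both directions. Of 26 exocytosis genes, 18 were higher and 6 lower, with a median of 1.78. The synaptotagmin-like proteins Sytl2 (6.84 ± 0.31) and Sytl5 (6.71 ± 0.32), which tether granules, and the ferlin Myof (5.94) were higher, and the priming factor Unc13d (−1.30) and the apical syntaxin Stx3 (−0.76) were lower. Of 36 O-glycosylation genes, 18 were higher and 10 lower, with a median of 0.71. Galnt5, which starts O-glycans, went from 2.06 ± 0.708 to 146 ± 19.2 CPM (6.16 ± 0.22). A4gnt, which caps them with N-acetylglucosamine, went from 0.401 ± 0.229 to 14.3 ± 2.81 CPM (5.18 ± 0.30). Gcnt3, which makes branched cores, changed by 3.72 and Fut1, a fucosyltransferase, by 3.73. The sialic acid hydroxylase Cmah (−2.86), B4galnt3 (−2.70) and the core 3 synthase B3gnt6 (−2.21) were lower, B3gnt6 at 0.859, 0.512, 1.03 and 0.827 CPM in the goblet libraries against 3.47, 3.68, 4.47 and 3.28. Cmah and B3gnt6 thus stood at a few CPM or less in both sorts.

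Secreted proteases and signalling proteins were mixed. Of 25 protease and inhibitor genes, 8 were higher and 13 lower. The tryptase Tpsg1 went from 0.885 ± 0.525 to 115 ± 20.3 CPM (7.05 ± 0.33), the tissue kallikrein Klk1 from 4.202 ± 1.22 to 390.5 ± 57.9 (6.55 ± 0.23). The meprins Mep1a (−2.78) and Mep1b (−2.73), metalloproteases of the brush border, were among the lower ones. Of 23 growth factor and Wnt genes, 5 were higher and 14 lower, with Pdgfb (3.98), Egf (3.27) and Wnt3 (2.98) higher and the bile acid-induced hormone Fgf15 (−3.23), Ereg (−2.54) and Vegfa (−2.13) lower. Of 25 ion and fluid genes, 7 were higher and 13 lower. Guca2a, the precursor of guanylin, had 727, 704, 895 and 738 CPM in the goblet libraries against 143, 135, 163 and 176, while the sodium-proton exchanger Slc9a3 (−3.17) and the anion exchanger Slc26a6 (−3.12) were lower. Of 13 Notch pathway genes, 5 were higher and 3 lower, with the ligand Dll1 (1.94) and the receptor-modifying Lfng (1.68) higher.

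**Figure D2:**
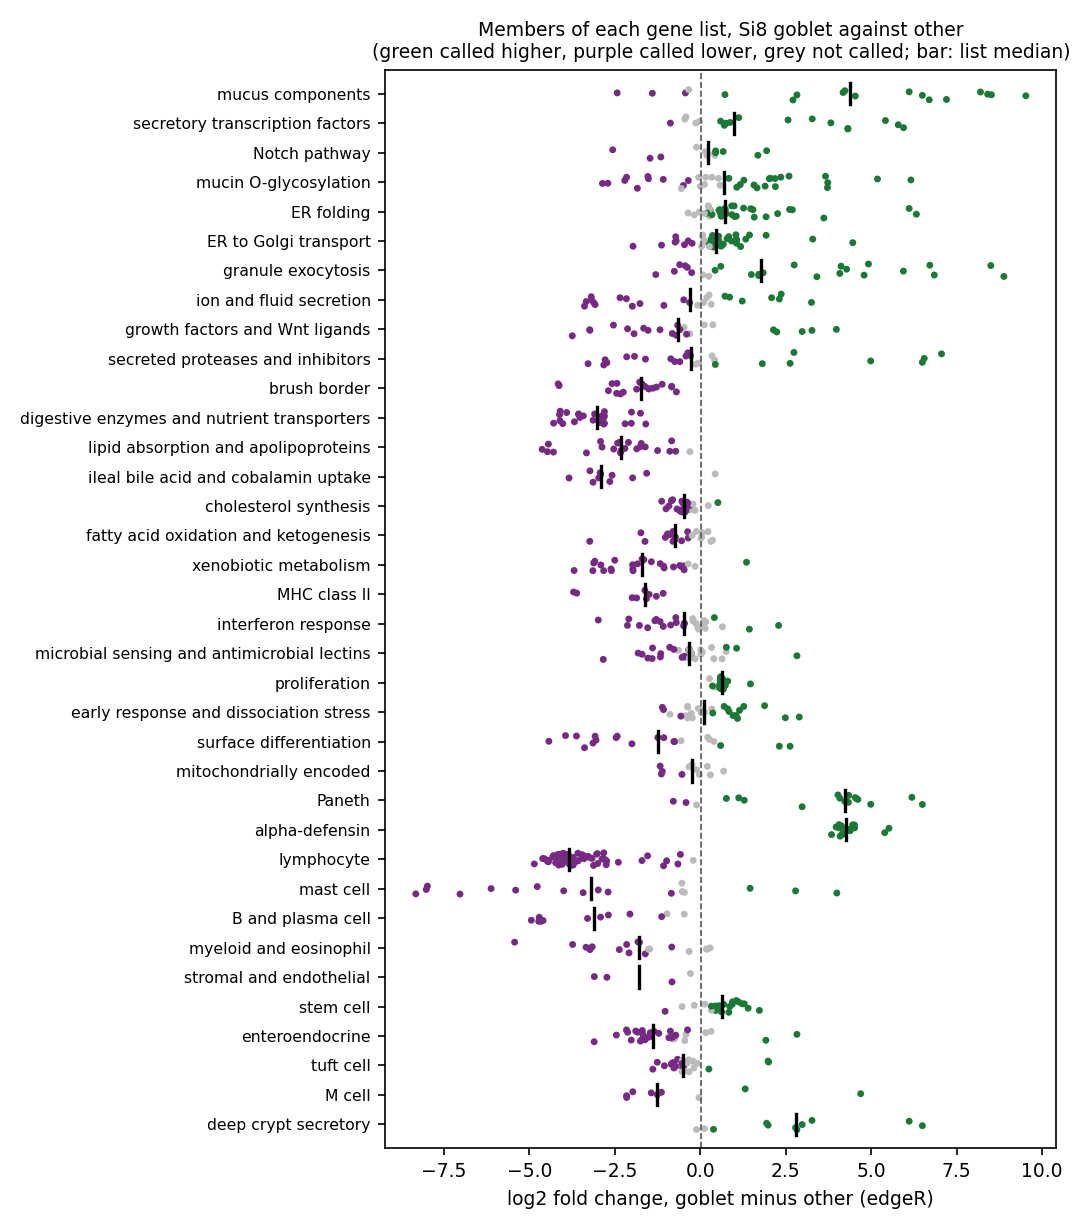
Log2 fold changes (horizontal, goblet minus other) of the tested members of each list with at least 3 of them; each point is a gene, the bar is the list's median, and the dashed line is the median over all tested genes. The alpha-defensin points lie together near 4 and most lymphocyte points between −5 and −3, while the mast cell points spread from −8.32 to 3.99.

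The absorptive programme was lower in the goblet sort almost throughout. All 20 brush border genes (median −1.74), all 26 digestive enzyme and nutrient transporter genes (median −3.01) and 22 of 23 lipid absorption genes (median −2.31) were called lower and none higher. So were 10 of 11 genes of ileal bile acid and cobalamin uptake, 24 of 27 xenobiotic genes (1 higher, Gstm1), 15 of 23 fatty acid oxidation genes (none higher) and 19 of 24 cholesterol synthesis genes (1 higher, Ebp). Slc6a18, an amino acid transporter relative, had 13.4, 7.33, 17.3 and 17.1 CPM in the other libraries and 0.764, 0.209, 0.401 and 0.677 in the goblet libraries (−4.74 ± 0.38). Enpp7, the alkaline sphingomyelinase of the brush border, had 22.6, 28.5, 72.9 and 128 CPM against 0.692, 1.05, 2.81 and 5.01 (−4.73 ± 0.81). Susd2, a membrane protein, had 60.9, 48.6, 102 and 175 CPM against 2.32, 2.51, 4.33 and 6.32 (−4.65 ± 0.53). The groups lay apart for all 3 genes, and for Enpp7 other S7 was the highest and other S1 the lowest of the other libraries. The apolipoprotein Apoa4 changed by −4.63 ± 0.48, the peptidase Mme by −4.29, the neutral amino acid transporter Slc6a19 by −4.12, lactase (Lct) by −4.10, the cobalamin receptor Cubn by −3.84 and the bile acid transporter Slc10a2 by −3.14. Single libraries moved Enpp7, to −4.13 without other S7 and −5.40 without goblet S8, and Lct, to −2.91 and −4.91. Lct had an adjusted p of 0.0577 with no filter on low counts.

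Genes of antigen presentation were lower, and those of interferon response and microbial sensing were mixed. All 9 MHC class II genes were called lower, with H2-Aa at 332, 224, 358 and 442 CPM in the other libraries against 117, 67.1, 79.8 and 109 in the goblet libraries and Ciita, the class II transactivator, at −1.99. H2-Aa did not overlap between the sorts. Of 28 interferon response genes, 15 were lower and 3 higher, with Ifit3 at −2.98 and Gbp6 at −2.13 against Gbp2 at 2.29 and Oas2 at 1.43. Of 31 sensing and lectin genes, 15 were lower and 3 higher, with inducible nitric oxide synthase Nos2 at −2.84, the pore former Gsdmd at −1.82 and the oxidase Duox2 at −1.41. Reg4 was higher, at 96.6 ± 33.7 CPM against 13.6 ± 3.41 (2.83 ± 0.27). Reg3b, an antibacterial lectin, was among the 5 most abundant genes of the other sort, at 16128, 17471, 15336 and 11341 CPM against 7099, 8585, 7289 and 3852 in the goblet libraries (−1.17 ± 0.24).

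Crypt genes were higher in the goblet sort by small amounts. Of 35 proliferation genes, 33 were called higher and none lower, with a median of 0.64, and 23 of the 35 did not overlap between the sorts. Ccnd2, a cyclin of G1 phase, changed by 1.47 ± 0.11, and Cdk1, the kinase of mitotic entry, had 59.7, 53.4, 43.9 and 48.1 CPM in the goblet libraries against 31.5, 37.8, 25.9 and 22.2. Cdk1 did not overlap between the sorts, and proliferation genes were the highest in other S3 for 27 of 35 and in goblet S2 for 26 of 35. Of all tested genes, 28.0% were highest in other S3 and 26.4% in goblet S2. Of 23 stem cell list genes, 18 were higher and 1 lower, with a median of 0.62. Hopx changed by 1.40 and Slc12a2, the basolateral chloride loader, by 1.23, and the lower gene was the Wnt target Axin2 (−1.03). Of 27 early response genes, 12 were higher and 3 lower, with Fosb at 46.8, 100.4, 95.7 and 60.4 CPM in the other libraries and 253, 437, 526 and 486 in the goblet libraries (2.49 ± 0.29) and Klf2 at 2.89. The summed early response level ranged from 4421 to 5916 CPM in the other libraries and from 4613 to 7721 CPM in the goblet libraries, so the groups overlapped, and the part of these genes in other differences was not tested.

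Transcripts of the Paneth list were abundant in the goblet sort, though some of these genes were also high in colon goblet libraries (given below). Of the 19 Paneth list genes, all were tested, 16 were called higher, 2 lower and 1 in neither direction, with a median of 4.23. The 12 that encode secreted products were all called higher, between 4.03 and 6.49 with a median of 4.44, against 1.43% of all tested genes with a call and a log2 change of at least 4. Lyz1, the Paneth cell lysozyme, had 382, 299, 711 and 275 CPM in the other libraries and 4439.7, 9038, 6546 and 13786 CPM in the goblet libraries (4.34 ± 0.43, adjusted p = 8.92e-06). Goblet S8 was the highest and goblet S2 the lowest, and every goblet library stood above every other library. Mmp7, the protease that activates alpha-defensins in the mouse, had 17.1, 10.3, 22.9 and 9.66 CPM against 476, 452, 407 and 559 (4.98 ± 0.29). Goblet S8 was the highest and S6 the lowest, and the groups lay apart. Itln1, a lectin that binds microbial sugars, went from 129.6 ± 67.6 to 2998 ± 1085 CPM (4.53 ± 0.40), and Ang4, a microbicidal ribonuclease, from 27.7 ± 13.6 to 518 ± 249 (4.23 ± 0.45). Mptx2, a pentraxin, had 464, 1069.8, 911 and 1633 CPM in the goblet libraries against 48.7, 36.97, 96.4 and 29.4. The phospholipases Pla2g2a (4.57) and Pla2g2f (4.08), the lipase-related Clps (4.33) and Pnliprp2 (4.03) and the protease Habp2 (4.61) lay in the same range. Pla2g2a is annotated as a polymorphic pseudogene.

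The Paneth list genes for signalling and transcription changed less. Wnt3, a niche ligand, went from 1.61, 1.45, 2.08 and 1.29 to 11.98, 12.8, 10.4 and 15.4 CPM (2.98 ± 0.18). The transcription factor Sox9 (1.12), the guidance receptor Ephb3 (1.28) and the peptidoglycan sensor Nod2 (0.76) were higher by smaller amounts. The Wnt receptor Fzd5 (−0.42) and the transcription factor Tcf4 (−0.79) were lower, and the Notch ligand Dll4 did not pass (−0.11 ± 0.14, adjusted p = 0.504), at 33.9, 30.6, 46.98 and 40.7 CPM in the other libraries and 32.2, 37.9, 39.8 and 31.1 in the goblet libraries. Fzd5 did not pass without other S3 (adjusted p = 0.0599), goblet S2 (0.0581), goblet S6 (0.051) or goblet S8 (0.0725). Spink4, a Kazal-type inhibitor listed for Paneth and deep crypt secretory cells, had 2189.9, 2092, 2595 and 2159.8 CPM in the goblet libraries against 31.8, 14.5, 36.4 and 17.7 (6.49 ± 0.32). Its change lay outside the range of the other secreted Paneth products except Mptx1 (6.19), which reached only 3.26 ± 0.943 CPM. Of the 19 genes, 9 also stand in another of the lists.

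The alpha-defensins, small pore-forming peptides of Paneth cell granules, rose as a block. In all, 59 names were listed, 27 were in the table and 20 passed the filter on low counts. The 7 that did not pass had at most 3 counts over the 4 other libraries and at most 36 over the 4 goblet libraries. All 20 tested genes were called higher, and since the goblet sort is where they are high, this filter favours such a result. Their changes ran from 3.84 to 5.52, with 18 of 20 between 3.8 and 4.6. The 16 with a match in the GENCODE M21 annotation (GRCm38, the mm10 build) lie on chromosome 8 between 21025545 and 21735471. Defa24 had 243, 209.9, 549 and 200.003 CPM in the other libraries and 3641, 7000.2, 5081 and 9290.4 CPM in the goblet libraries (4.38 ± 0.42). Defa21 had 64.9, 61.7, 166 and 61.9 against 624, 1762, 1193 and 2458 CPM (4.09 ± 0.53), and Defa22 had 70.1, 62.5, 167 and 61.7 against 688, 1861, 1249 and 2507 CPM (4.12 ± 0.51). The groups lay apart for each, with goblet S8 highest and S2 lowest. The transcripts of Defa21 and Defa22 are identical at 416 of 418 aligned bases, and those of Defa21 and Defa24 at 348 of 425. Reads of single family members may thus be split between near-identical copies or left uncounted, and the level of 1 gene is uncertain. Per kilobase of annotated exon, which puts genes of different length side by side, Defa24 stood at 14920 CPM in the goblet sort. Tff3 stood at 14150, Fcgbp at 8914, Zg16 at 8502 and Lyz1 at 6692. The uncertainty of single family members holds for Defa24 here, so its rank among these genes is approximate.

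The promoter of Defa21 is shown because the alpha-defensins moved together. The 250 bases before the start are identical in Defa22 (250 of 250), where they lie at chr8:21162027-21162276. Capitals mark matches to the letters CTTTGA, the core of the motif of TCF factors that act in Wnt signalling, searched on both strands, where the other strand reads TCAAAG. Both matches are on the minus strand, at 111 and 71 bases before the start. Such a match occurs in 13.8% of the 32851 RefSeq promoters of the same length, and it is a description of letters, not a binding site. The sequence is from RefSeq, GRCm38.p6, chr8:21025295-21025544, plus strand.
Defa21: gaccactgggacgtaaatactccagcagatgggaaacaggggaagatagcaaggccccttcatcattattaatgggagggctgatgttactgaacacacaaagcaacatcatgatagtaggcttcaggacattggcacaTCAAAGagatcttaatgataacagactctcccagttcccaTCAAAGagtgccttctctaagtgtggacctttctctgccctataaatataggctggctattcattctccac

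Within the goblet sort, the libraries with the highest levels differed between Paneth products and other genes. All 20 alpha-defensins were lowest in goblet S2 (of all tested genes, 25.6% were lowest there) and 19 of 20 were highest in goblet S8 (18.5%). The level in S8 over that in S2 ranged from 1.87 to 4.66, with a median of 3.21. Of the 12 secreted Paneth products, 7 were lowest in S2 and 9 highest in S8, and Mmp7, Mptx1, Pla2g2a, Pla2g2f and Spink4 were those not lowest in S2. Of the 18 mucus list genes, 11 were highest in goblet S6, where 28.9% of all tested genes were highest, and 9 were lowest in S2. Of the 47 genes called higher with a log2 change of at least 6, a set chosen by its fold that also holds Spink4 and Mptx1, 39 were highest in goblet S6. In the other sort, 19 of 20 alpha-defensins, 10 of 12 secreted Paneth products and 10 of 18 mucus list genes were highest in S5. Of all tested genes, 24.1% were highest there. The summed alpha-defensin level was 663, 582, 1522 and 559 CPM in other S1, S3, S5 and S7 and 8136, 18329, 13164 and 25547 CPM in goblet S2, S4, S6 and S8. The order was noticed in these libraries and is given with no test, and genes of a block share their libraries and may in part share reads.

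**Figure D3:**
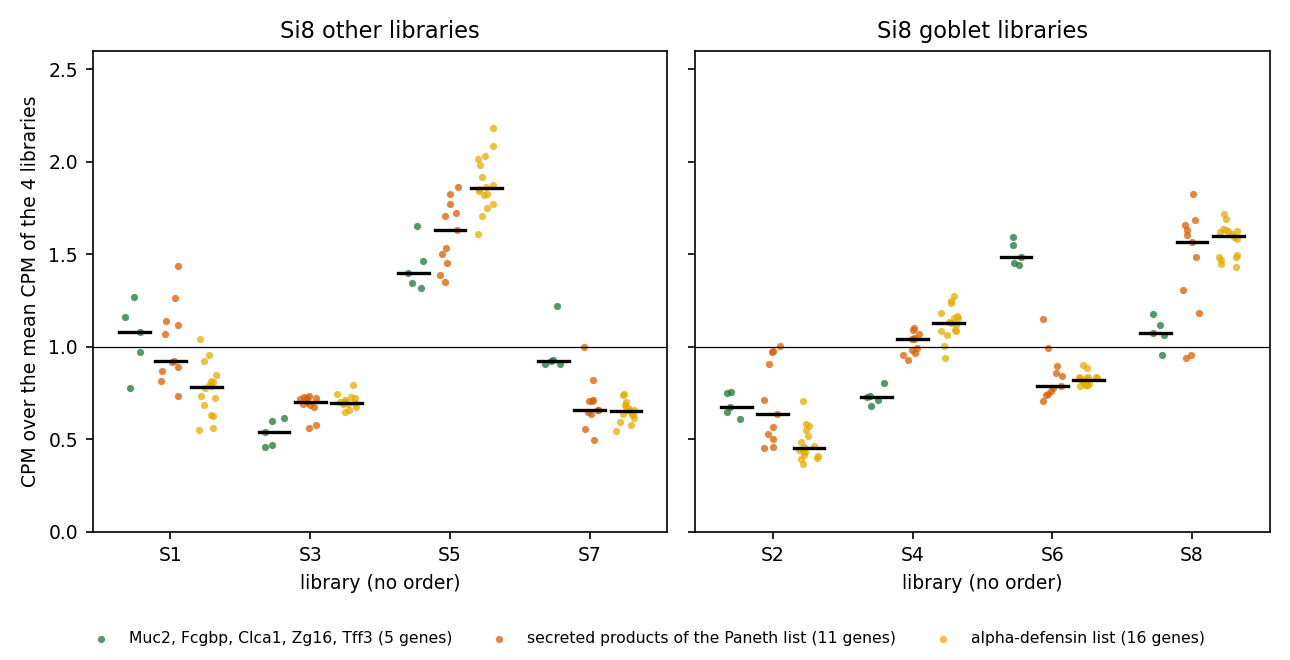
Level of each gene over its mean in the 4 libraries of its sort (vertical, CPM ratio), for other libraries (left) and goblet libraries (right); each point is a gene whose mean in the other sort reaches 1 CPM, bars are medians of the set, and libraries have no order. Alpha-defensins and most secreted Paneth products peak in goblet S8 and other S5, the mucus genes in goblet S6 and other S5.

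Transcripts of the lymphocyte list were lower in the goblet sort. Bulk levels do not show where these cells lay, and whether they were intraepithelial was not tested. Of 81 genes listed, 78 were in the table and 69 passed the filter. Of these, 68 were called lower, none higher, and 67 did not overlap between the sorts. Since the other sort is where they are high, the filter favours such a result, also for the subgroups below. The median was −3.83, the quartiles were −4.12 and −3.12, and 55 of 69 lay between −5 and −3. The 9 genes that did not pass the filter had at most 59 counts over the 4 other libraries and at most 9 over the 4 goblet libraries. The summed level was 671, 589, 609 and 557 CPM in the other libraries and 83.4, 94.6, 94.8 and 106 CPM in the goblet libraries, a ratio of 6.40, so lymphocyte transcripts were present in both sorts.

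All 11 T cell receptor and CD3 genes were called lower with no overlap, between −4.45 and −3.83. Cd3g had 9.77, 7.85, 8.39 and 7.99 CPM in the other libraries and 0.334, 0.651, 0.716 and 0.677 in the goblet libraries (−3.84 ± 0.21, adjusted p = 3.95e-08). Cd3e had 2.14, 2.11, 2.05 and 2.13 CPM against 0.0239, 0.209, 0.0573 and 0.0752 (−4.45 ± 0.36), and its change was −5.25 without goblet S4. Both receptor types were present: Trac, the alpha constant chain, had 5.45, 4.83, 4.24 and 3.39 CPM against 0.191, 0.418, 0.258 and 0.301 (−3.92 ± 0.25), and Trdc, the delta constant chain that marks gamma-delta T cells, had 4.98, 2.22, 2.71 and 1.49 against 0.191, 0.186, 0.229 and 0.1504 (−3.89 ± 0.40). For Trdc other S1 was the highest library and other S7 the lowest. Cd8a, the co-receptor of most intraepithelial T cells, had 14.7, 13.5, 15.4 and 12.2 CPM against 0.621, 0.9999, 0.8597 and 0.677 (−4.14 ± 0.17), while Cd4 stood at 1.08 ± 0.171 CPM in the other sort (−2.82).

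Genes of cytotoxic granules were lower as a group. Gzma, a granzyme of killer cells, had 145, 127, 118 and 92.1 CPM in the other libraries and 3.27, 6.58, 7.11 and 4.86 in the goblet libraries (−4.47 ± 0.24, adjusted p = 9.75e-08). Gzmb had 73.4, 50.5, 49.8 and 29.4 CPM against 1.86, 3.56, 3.84 and 2.16 (−4.16 ± 0.32). All 10 cytotoxic granule and killer receptor genes were lower, with a median of −4.17, among them perforin (Prf1, −4.61) and the activating receptor Klrk1 (−4.30). The 8 chemokine and chemokine receptor genes had a median of −3.49, with Ccl5 at 24.5, 15.8, 19.5 and 17.9 CPM against 1.24, 2.26, 2.49 and 1.83 and the gut-homing receptor Ccr9 at −3.71. Itgae, the integrin that holds these cells to epithelium, went from 23.9 ± 1.71 to 1.77 ± 0.545 CPM (−3.75 ± 0.19). The actin-binding Coro1a, abundant in blood cells and no member of the list, changed by a similar size (−4.59 ± 0.23).

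A few list members stood apart from the block. Genes above −2 included Ptpn22 (−1.71), Amica1 (−0.65), Fyb (−0.98), Cd244 (−0.21), Gimap5 (−0.58) and Cd28 (−1.54). Ptpn22, a phosphatase of T cell receptor signalling, had 8.71, 10.7, 10.2 and 9.05 CPM in the goblet libraries against 28.1, 27.5, 32.9 and 37.8 in the other libraries. Cd244 did not pass (adjusted p = 0.488), at 4.95, 4.11, 4.497 and 4.05 CPM in the other libraries and 2.48, 3.28, 3.15 and 6.32 in the goblet libraries, which overlapped. It was called lower without goblet S8 (−0.56, adjusted p = 0.0146). Cd28 passed but overlapped, at 0.116 ± 0.0831 CPM against 0.351 ± 0.127, and stood at −2.14 without goblet S2. Whether these genes came from lymphocytes in the goblet sort was not tested.

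Transcripts of mast cell proteases were among the most strongly reduced of the comparison, while some other genes of the mast cell list were higher or did not pass. Of 30 genes listed and in the table, 18 passed the filter: 12 were called lower, 3 higher and 3 in neither direction, with a median of −3.21. For genes that are high in the other sort only, the filter favours a lower call. Leaving out 1 library at a time gave 12 to 17 lower genes, and no filter on low counts gave 19. Mcpt1, a chymase of mucosal mast cells, had 59.7, 17.9, 107 and 117 CPM in other S1, S3, S5 and S7 and 0.263, 0.0930, 0.315 and 0.276 CPM in the goblet libraries (−8.32 ± 0.79, 319.9-fold, adjusted p = 3.21e-05), the lowest among called genes that did not overlap and reached 10 CPM in one sort. Mcpt2, a related chymase of the same cluster on chromosome 14, had 22.3, 5.56, 36.3 and 42.98 CPM against 0.143, 0.0698, 0.0860 and 0.1003 (−8.01 ± 0.85, adjusted p = 5.74e-05). In both, other S3 was the lowest library of its sort and every goblet library lay below it. Of all tested genes, 0.949% were called with a log2 change of −4 or less. The transcripts of Mcpt1 and Mcpt2 were identical at 802 of 1022 aligned bases, and those of Mcpt1 and Mcpt9 at 641 of 770. Mcpt9 had 1.64, 0.454, 2.998 and 2.96 CPM against 0.0239, 0, 0.0860 and 0.0752 (−5.40 ± 0.78). Cma2, another chymase, had 117 counts over the 4 other libraries and 0 over the 4 goblet libraries, and was at least 42.9-fold lower, computed against a floor of 3 counts over the group.

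Defining mast cell genes outside the chymases had few counts or none in the goblet sort. Cpa3, the carboxypeptidase of mast cell granules, had 402 counts in the other libraries and 3 in the goblet libraries, a ratio of scaled counts of 147 (95% counting interval 50.05 to 717). Ms4a2, the beta chain of the IgE receptor, had 154 and 2 counts, a ratio of 84.7 (23.0 to 705). Intervals and floors cover counting error only. Fcer1a, the alpha chain of that receptor, and Mcpt4, a protease of connective tissue mast cells, did not pass the filter, at 124 and 56 counts over the other libraries against 6 and 0 over the goblet libraries. Srgn, the granule proteoglycan, went from 10.3 ± 1.201 to 0.644 ± 0.126 CPM (−3.99 ± 0.17), the size of the lymphocyte block, and Srgn is made by other blood cells as well. Gata2 (−4.77), the interleukin-33 receptor Il1rl1 (−3.43), the shared Fc receptor chain Fcer1g (−2.98) and the amine transporter Slc18a2 (−2.70) were lower as well. Other S3 was the lowest other library for 15 of 18 mast cell genes, where 29.1% of all tested genes were lowest. The summed list level was 131, 59.5, 197 and 214 CPM in the other libraries and 86.96, 74.2, 67.8 and 85.4 in the goblet libraries, and in the goblet libraries Kit made up most of it.

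The 3 mast cell list genes called higher were Kit, Mitf and Tpsb2. Kit, the stem cell factor receptor that deep crypt secretory cells also carry, had 10.9, 7.92, 9.37 and 9.602 CPM in the other libraries and 73.4, 63.1, 55.7 and 68.3 in the goblet libraries (2.79 ± 0.12, adjusted p = 1.02e-08). Mitf, a transcription factor, had 0.4099, 0.386, 0.634 and 0.632 CPM against 1.22, 1.65, 1.38 and 1.404 (1.46 ± 0.23). Tpsb2, a tryptase, reached only 0.492 ± 0.157 CPM (3.99 ± 0.51). The groups lay apart for all 3. Tpsb2 lies near Tpsg1 on chromosome 17, with ends at 25369098 and 25374442. The tryptase Tpsg1, counted in the protease list and not in the mast cell list, stood at 107, 98.8, 144 and 109 CPM in the goblet libraries. Which cells its transcripts came from was not tested. The prostaglandin synthase Hpgds (adjusted p = 0.0688), the leukotriene synthase Ltc4s (0.0564) and Rgs13 (0.127) did not pass. Hpgds was called lower without other S3 (adjusted p = 0.0393) or goblet S8 (0.0493), Ltc4s without goblet S2 (0.0422) and Rgs13 without goblet S8 (0.0288) or with no filter on low counts (0.0257). Of the mast cell list, 4 genes also stand in another list, such as that of tuft cells.

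**Figure D4:**
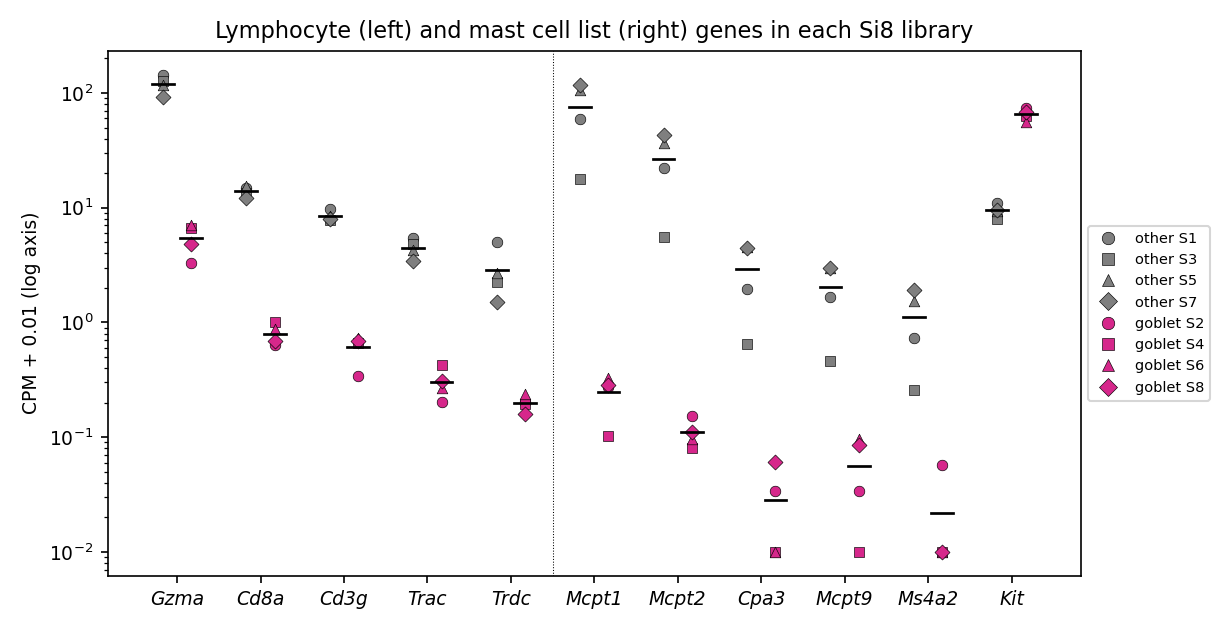
CPM + 0.01 (log axis) of 5 lymphocyte list genes (left) and 6 mast cell list genes (right) in each library; grey symbols are other libraries, magenta symbols goblet libraries, and bars are means of 4 libraries. Goblet symbols lie below all other symbols for every gene but Kit, where they lie above, and other S3 is the lowest other library for Mcpt1, Mcpt2, Cpa3, Mcpt9 and Ms4a2.

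Promoters of 2 mast cell genes are shown because these genes define the cell type and were at or near 0 in the goblet sort. Capitals mark a match to CTTTGA in Mcpt1, 196 bases before the start, and to AGATAA in Cpa3, 46 bases before the start. AGATAA is a form of the GATA motif that mast cell factors such as GATA2 bind, and other forms were not searched. Both matches are on the gene's strand, and the other strand was searched too. AGATAA or its complement TTATCT occurs in 9.99% of RefSeq promoters of this length. No AGATAA match in the window of Mcpt1 says only that these letters are not there. The window does hold the letters tgataa, which differ from AGATAA only in the opening letter and are not marked. The missing mark is thus no difference in GATA motifs between Mcpt1 and Cpa3. The sequences are from RefSeq, GRCm38.p6: Mcpt1 at chr14:56017714-56017963, plus strand, and Cpa3 at chr3:20242182-20242431, minus strand.
Mcpt1: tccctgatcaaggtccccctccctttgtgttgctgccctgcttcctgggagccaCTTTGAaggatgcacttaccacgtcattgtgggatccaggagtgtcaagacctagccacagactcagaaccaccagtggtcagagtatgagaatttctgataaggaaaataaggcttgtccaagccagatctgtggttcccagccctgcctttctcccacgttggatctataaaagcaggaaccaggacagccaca
Cpa3: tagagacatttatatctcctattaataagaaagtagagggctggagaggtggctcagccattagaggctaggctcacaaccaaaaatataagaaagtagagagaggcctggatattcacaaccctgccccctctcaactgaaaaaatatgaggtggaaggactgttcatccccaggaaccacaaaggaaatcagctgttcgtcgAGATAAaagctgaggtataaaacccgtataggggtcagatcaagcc

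Genes of B cells, plasma cells and myeloid cells were lower too. Igha, the heavy chain of IgA, had 117, 165, 255 and 99.4 CPM in the other libraries and 3.68, 7.39, 3.98 and 5.59 CPM in the goblet libraries (−4.94 ± 0.37, adjusted p = 3.71e-06). Jchain, which joins IgA into dimers, had 29.3, 40.8, 63.3 and 23.9 CPM against 1.15, 1.84, 1.66 and 1.303 (−4.72 ± 0.33), and the light chain Igkc had 52.7, 60.5, 91.5 and 38.6 against 2.08, 2.91, 2.24 and 2.43 (−4.65 ± 0.27). For Igha, other S5 was the highest of the other libraries and S7 the lowest, and no goblet library overlapped them. Of 12 B and plasma cell genes tested, 10 were lower and none higher. Of 18 myeloid and eosinophil genes, 12 were lower and none higher, with a median of −1.80. For both lists the filter on low counts favours a lower call of genes that are high in the other sort only. Itgax, an integrin of dendritic cells, went from 6.59 ± 1.098 to 0.487 ± 0.338 CPM (−3.73 ± 0.34, −4.33 without goblet S4), and Flt3, a growth factor receptor of dendritic cells, had 99 counts against 2, a ratio of 54.4 (95% counting interval 14.7 to 456). Of 17 stromal and endothelial genes only 4 passed the filter, 3 of them lower, with Vim at −2.73 and Pecam1 at −3.10.

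Markers of other epithelial types were mixed. Of 30 enteroendocrine genes, 23 were lower and 2 higher, the latter being Reg4 and the neuropeptide precursor Tac1, which had 60.8, 50.2, 42.2 and 23.1 CPM in the goblet libraries against 13.1, 12.3, 11.5 and 9.803 (1.92 ± 0.25). Somatostatin (Sst, −2.46), the serotonin-synthesis enzyme Tph1 (−2.16) and the incretin Gip (−2.02) were lower. Of 26 tuft cell genes, 13 were lower and 3 higher, with Plcg2 at −1.39 and Spib at −1.26. The summed tuft list was nevertheless higher in the goblet libraries, 1350 to 1878 CPM against 618 to 657, through Krt18 (1092 ± 234 against 274 ± 35.96 CPM) and Cd24a (369 ± 90.3 against 93.4 ± 10.998 CPM). Of 9 M cell genes, 6 were lower and 2 higher, among them the chemokine Ccl9, which had 114, 89.4, 100.2 and 104 CPM in the goblet libraries against 5.39, 2.52, 4.698 and 3.31 (4.69 ± 0.21). Of 11 deep crypt secretory genes, 9 were higher and none lower, and all 11 also stand in another list. Of 7 erythroid genes, 1 passed the filter and was not called.

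The 4 other libraries were not alike in villus and crypt genes. Lct stood at 1.54, 2.38, 10.95 and 30.5 CPM in other S1, S3, S5 and S7, and Ada, adenosine deaminase, at 146, 90.6, 242 and 310.5. Slc28a2, a nucleoside transporter, stood at 189, 96.5, 312 and 326 CPM and Apoa4 at 96.4, 107, 249 and 317 CPM. S7 was the highest and S1 the lowest for Lct. For 19 of 20 brush border genes and 23 of 26 digestive genes S3 was the lowest, where 29.1% of all tested genes were lowest. In the goblet libraries, S4 was the lowest for 16 of 20 and 21 of 26 of these genes (24.8% of all tested genes). Proliferation genes went the other way in the other sort, with 26 of 35 lowest in other S7 (26.9% of all tested genes). In the goblet libraries, S6 was the lowest for 30 of 35 proliferation genes (28.0% of all tested genes). Several lists had extremes at neighbouring numbers in both sorts. Of 30 enteroendocrine genes, 21 were lowest in other S3 and 23 in goblet S4, and 26 were highest in other S7 and 28 in goblet S8. Of all tested genes, 24.0% were highest in other S7 and 18.5% in goblet S8. Of 26 tuft cell genes, 17 were lowest in other S3 and 14 in goblet S4. Highest in other S7 were 16 of them, and 21 in goblet S8. Of 27 early response genes, 16 were lowest in other S1 and 19 in goblet S2 (21.4% and 25.6% of all tested genes). Of 28 interferon response genes, 21 were lowest in other S3 and 24 in goblet S4, but 17 were highest in other S1 and 21 in goblet S6. Of all tested genes, 23.9% and 28.9% were highest in these 2 libraries. Brush border genes were likewise highest in other S7 for 15 of 20 but in goblet S6 for 14 of 20. Whether such libraries share an animal or a day is not stated in the labels. The fit took all libraries as unpaired, and what any such sharing does to the p-values was not tested. The genes with the largest ratio between libraries of one sort at 100 CPM or more included ribosomal RNA-like entries: Gm42418 had 2490.5, 5248, 12644 and 13519 CPM in the other libraries and 1382, 5860.03, 11187 and 4259 in the goblet libraries, which overlapped. Thbs1, a matrix protein, was among those of the goblet sort, at 99.95, 427, 294 and 309 CPM against 14.8, 96.3, 38.4 and 28.1 (2.67 ± 0.64, 3.39 without other S3).

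In the distal colon libraries, scaled by totals of their own table, the alpha-defensin genes tested here had 0 counts in the 4 other libraries and 1 count, of Gm14851, in the 4 goblet libraries, and Lyz1 stood at 1.83 ± 1.02 CPM (SD, n = 4) in the goblet sort. Mptx1, the pentraxin at 3.26 ± 0.943 CPM in Si8 goblet libraries, stood at 4669 ± 1473 CPM in colon goblet libraries, while Mptx2 stood at 0.366 ± 0.208. Some further secreted products of the Paneth list were also higher in the colon's goblet sort than in its other sort. Spink4 stood at 2032 against 8.55 CPM and Pla2g2f at 227 against 6.70. Clps stood at 21.9 against 0.102, Ang4 at 20.8 against 0.256 and Pla2g2a at 14.6 against 0.0484. Mmp7 (0.669), Itln1 (2.94), Pnliprp2 (2.31) and Habp2 (0.0604) stood at a few CPM or less in colon goblet libraries. Mcpt1 stood at 0.717 ± 0.280 CPM in the colon's other sort and Cd3g at 0.202 ± 0.103. The difference between the regions was not tested.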

How the data were processed

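RNA of sorted cells was sequenced as paired-end, ribosome-depleted, stranded total RNA libraries, per the labels' protocols. The authors deposited raw read counts per gene for the 8 Si8 libraries, and the submitters' processing notes name FastQC 0.11.2, STAR 2.4.0f, HTSeq 0.6.1p1, DESeq2 1.14 and the mm10 build; the sources used here give no settings, strand included. The deposited normalized values were not used. Of 46882 entries, 4 of repeated symbols were left out and 34213 had a count. The 15487 genes that passed filterByExpr were fitted in edgeR 4.0.16 (R 4.3.3) with TMM factors and the robust quasi-likelihood test, without covariates, on the 4 goblet and 4 other libraries (common biological coefficient of variation 0.152), and tested on simulated data. Adjusted p is Benjamini-Hochberg over all tested genes. Locations and transcripts are from GENCODE M21 (GRCm38) and promoters from RefSeq, GRCm38.p6.

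The Si8 comparison, the gene lists and the roles within them were chosen with earlier results of these data known. Named genes are those with the 10 highest and 10 lowest log2 fold changes among called, non-overlapping genes that reach 10 CPM in one sort, members of the Paneth, alpha-defensin, lymphocyte and mast cell lists, up to 5 called genes of each other list in its main direction and 3 in the opposite one, a fixed set of cell type markers, the 5 most abundant genes per sort, and the 8 with the largest range within a sort at 100 CPM or more. Alternatives were DESeq2 1.42.0, RLE and upper-quartile factors, no filter on low counts, a fit on all 16 libraries, leaving out each library, the 10 most abundant goblet genes or the mitochondrially encoded genes, and leaving out structural RNA genes, the last chosen after seeing the data. One item of the lymphocyte list is not reported here.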

Additional observations from a re-analysis of the deposited data

Results flagged for a closer look

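Of 346 sets of 4 libraries looked at (the genes and sums reported above, in each sort), 13 had 1 library far from the other 3, with a gap over range above Dixon's critical value at 95% for 4 libraries. This is 3.8%, where chance flags about 1 in 20 groups (5.0%). Alpha-defensins and a Paneth product stood apart in other S5. Defa21 had 166 CPM there against 61.7 to 64.9 CPM in the remaining other libraries, Defa22 had 167 against 61.7 to 70.1, and Defa24 had 549 against 200.003 to 243. The summed alpha-defensin level there was 1522 CPM against 559 to 663, and Clps had 4.96 against 1.84 to 1.95 CPM. These genes share the library, so their flags are not independent.

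Transcription factors of the secretory lineage stood apart in goblet S6, with Foxa3 at 146 CPM against 102 to 108 and Spdef at 215 against 155 to 163 CPM. In goblet S8, Cd24a had 504 CPM against 316 to 332. In goblet S2, Cd3g had 0.334 CPM against 0.651 to 0.716, and Ms4a2 had 0.0477 CPM against 0 in the remaining goblet libraries. Other S3 was high for Ccr9, at 6.81 CPM against 5.76 to 5.90, and for Tgm5, at 0.0908 against 0.0575 to 0.0631 CPM, and low for Slc10a2, at 311 against 436 to 446 CPM. Tgm5 had only 10 counts over all other libraries, and Ms4a2 only 2 over all goblet libraries. Their flags thus rest on very few counts and may be counting error.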

How the results depend on the processing

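No paired analysis was possible because the sorts share no number in the labels, and pairs of consecutive numbers would be a guess from their order; no such fit was made. Leaving out each library in turn gave 4228 to 5107 genes called higher and 4466 to 4890 lower, and the remaining alternatives 4785 to 5291 and 4610 to 5253. The higher share of called genes was 48.6% to 53%. The alpha-defensin list had 18 to 22 called higher and none lower, and the lymphocyte list 66 to 76 called lower and none higher, over all of these alternatives. The mast cell list had 19 called lower with no filter on low counts, which tests more genes, and 9 to 12 in the other fits on all libraries. The Paneth list had 1 to 2 called lower when a library was left out. Dll4, not called, ranged from −0.19 to 0.0051 when a library was left out and changed sign only without other S5, and the cause was not tested. With totals that leave out the 10 most abundant goblet genes, Lyz1 among them, the mean summed levels were 709 (other) and 10260.2 (goblet) CPM for the Paneth list, 666 and 123 CPM for the lymphocyte list and 102 CPM for the mast cell list in the goblet sort. Among single genes named above, 9 fits lost a call and 7 gained one. The depth limits genes of few counts in a sort, such as Cma2, Cpa3, Ms4a2 and Flt3.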
